A study of Mus musculus with 6 samples.

Results

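The genes described here encode 5 bone morphogenetic protein (BMP) ligands, Bmp2, Bmp4, Bmp5, Bmp6 and Bmp7, and 5 of the receptors that bind such ligands, Bmpr1a, Bmpr1b, Acvr1, Bmpr2 and Acvr2a. They were chosen by name, with earlier results of these data known. Every probe set that the platform annotation assigned to 1 of these symbols alone was taken. That gave 26 of the 45101 probe sets on the array, 9 for ligands and 17 for receptors. The samples were midbrain floor plate and the ventral lateral tissue next to it, cut without overlap, from C57BL/6 mouse embryos at embryonic day 10.5. No transgene, mutation or treatment is given in the labels for either region. Each region had 3 samples, each a pool of 6 embryos of mixed sex. The labels leave unstated whether the same embryos gave tissue to pools of both regions. A p-value here therefore measures the spread between these 6 pools and nothing wider.

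BMPs are secreted dimers of the TGF-beta superfamily. They bind a complex of type I receptors (here Bmpr1a, Bmpr1b and Acvr1) and type II receptors (here Bmpr2 and Acvr2a), both serine/threonine kinases, and the type I receptor then phosphorylates the transcription factors Smad1, Smad5 and Smad9. In the neural tube BMPs are best known as signals of the dorsal midline, the roof plate, which act against Sonic hedgehog from the ventral midline, the floor plate. By sequence, Bmp2 and Bmp4 form a pair of close relatives, and Bmp5, Bmp6 and Bmp7 belong to another subgroup, together with Bmp8a and Bmp8b. Bmp6 and Bmp7 are known to signal through Acvr1.

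Bmp5, Bmp6 and Bmp7, the ligands of the second subgroup among the members, were higher in floor plate. The difference was 4.38-fold on the single probe set of Bmp6 and 2.12-fold to 5.25-fold on the 3 of Bmp7. Bmp5 was 6.09-fold and 2.30-fold higher on 2 of its 3 probe sets, and the third (1.07-fold) did not pass. The receptor gene Acvr1 was 1.87-fold and 1.99-fold higher on 2 of its 3 probe sets. None of the 14 probe sets of the other 4 receptor genes passed the test (limma), and none of them had an unadjusted p under 0.05 either. Over the array 7428 of 45037 probe sets had an unadjusted p under 0.05. Bmp2 had a fold change in the other direction (log2 fold change -1.03) with an adjusted p just over the threshold (0.0515), and Bmp4 did not pass. Fewer cells of a type and less RNA per cell cannot be told apart in such dissected pieces.

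All values below are log2 values centred on each probe set's median over the 6 arrays, as deposited. A value of 0 is therefore the middle of these 6 samples and not the absence of RNA, the sign of a single value has no meaning of its own, and neither levels of different genes nor signal over background can be compared. Neither the log base nor the direction is given in the sources used here, and log2 with more RNA as higher was assumed. Under that reading the floor plate gene Corin was higher in floor plate (log2 fold change 6.36, adjusted p = 0.00202) and so was Foxa2 (1.76, adjusted p = 0.0132), while Nkx2-2 (-2.11, adjusted p = 0.0057) and Gad1 (-4.56, adjusted p = 6.04e-05) of the lateral tissue were lower. Shh missed the threshold (1.76, adjusted p = 0.0734). Of the 9 floor plate markers listed, 8 were higher, and of the 8 measured ventral lateral markers 6 were lower, while the other 2, Sim1 (1.28, adjusted p = 0.0698) and Nkx6-1 (0.71, adjusted p = 0.0856), had positive fold changes that did not pass. Precision was limited by the number of arrays, with a median SE of a difference of 0.127 on the log2 scale.

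Promoters were looked at for the members that moved together and for 1 receptor gene that did not pass. RefSeq starts of assembly GRCm38.p6 were found for 8 of the 10 members, those of Bmp2 and Bmp7 not being among them. The 250 bases before the start are shown for Bmp5, Bmp6 and Acvr1, which had probe sets higher in floor plate, and for Bmpr1a, which had none. The sequences are written 5′ to 3′ on the strand of the gene, with CpG dinucleotides in capitals.
Bmp5 (chr9:75775115-75775364, plus strand): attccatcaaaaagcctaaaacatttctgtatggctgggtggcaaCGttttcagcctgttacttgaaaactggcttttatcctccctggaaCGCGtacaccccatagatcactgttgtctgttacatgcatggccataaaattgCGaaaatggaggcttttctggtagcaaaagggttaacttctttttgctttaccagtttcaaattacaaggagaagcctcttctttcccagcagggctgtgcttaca
Bmp6 (chr13:38345466-38345715, plus strand): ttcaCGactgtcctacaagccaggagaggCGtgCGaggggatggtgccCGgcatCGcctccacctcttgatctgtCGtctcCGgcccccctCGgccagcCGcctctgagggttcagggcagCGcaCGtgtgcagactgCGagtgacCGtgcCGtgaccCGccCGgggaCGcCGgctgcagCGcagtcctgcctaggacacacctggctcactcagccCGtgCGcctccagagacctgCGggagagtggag
Acvr1 (chr2:58566829-58567078, minus strand): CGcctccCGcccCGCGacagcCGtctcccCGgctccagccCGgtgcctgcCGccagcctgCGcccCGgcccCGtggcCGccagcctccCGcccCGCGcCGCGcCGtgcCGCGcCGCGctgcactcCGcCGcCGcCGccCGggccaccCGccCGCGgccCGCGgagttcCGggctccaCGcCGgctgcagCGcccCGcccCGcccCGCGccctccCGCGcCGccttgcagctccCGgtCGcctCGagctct
Bmpr1a (chr14:34502547-34502796, minus strand): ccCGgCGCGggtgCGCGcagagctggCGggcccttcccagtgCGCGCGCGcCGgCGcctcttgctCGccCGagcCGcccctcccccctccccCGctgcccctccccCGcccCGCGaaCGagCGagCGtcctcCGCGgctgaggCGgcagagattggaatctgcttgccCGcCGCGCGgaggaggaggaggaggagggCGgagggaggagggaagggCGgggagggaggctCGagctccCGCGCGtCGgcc

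These promoters were of different kinds. The Bmp5 promoter held 4 CpGs and 42.8% G and C, under the median of 6 CpGs and 52.4% over 32851 RefSeq promoter windows of this length. Bmp6 held 22 CpGs and Acvr1 46, both over the upper quartile of 16. Members that did not pass spanned the same range, since Bmpr1a held 36 CpGs, Acvr2a 49 and the 3 starts of Bmpr1b between 1 and 5. Low and high CpG counts thus occurred both among members with passing probe sets and among those without. Each window was also searched on both strands for the forkhead core TGTTTAC, which 3.17% of all windows hold, the homeodomain core TAATTA (4.84%) and the Smad1/5-type element GGCGCC (9.59%). Among the 10 member windows, the Smad-type letters were present in Bmpr2 and Bmpr1a, and the other motifs in none.

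Of the 9 ligand probe sets, 6 were higher in floor plate and 0 lower (limma, Benjamini-Hochberg adjusted p under 0.05 over 45037 probe sets), where 2.70% of all probe sets tested were higher and 2.01% lower, 4.71% in all. Bmp2 supplied the 1 ligand probe set with an unadjusted p under 0.05 in the lower direction. The median log2 fold change over the ligand probe sets was 1.20, against -0.0040 over all probe sets. The 3 floor plate values lay above all 3 ventral lateral values for 6 ligand probe sets and below them for 1. Over all probe sets these shares were 11.5% and 11.0%. Because the members were chosen with earlier results of these data known, these counts describe the group and do not test it.

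Of all 26 probe sets of the members, the lowest p was that of Bmp5 1455851_at. Probe set 1455851_at read 1.27, 1.27 and 1.23 in the floor plate samples, against -1.44, -1.23 and -1.36 in the ventral lateral samples. The spread within each region was a small part of the distance between them, with means of 1.26 ± 0.02 and -1.35 ± 0.11 (SD, n = 3 each). The log2 fold change was 2.61 (SE 0.10, adjusted p = 6.04e-05), and by p-value this probe set ranked 4th among all 45037. Leaving out any 1 sample kept it between 2.56 and 2.66, past the threshold in 6 of 6 fits.

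The other 2 probe sets of Bmp5 showed less. On 1421282_at the values were 0.29, 1.23 and 0.33 in floor plate and -0.29, -0.79 and -0.68 in ventral lateral tissue. The groups did not overlap, but floor plate replicate 2 stood well above its fellows. The log2 fold change of 1.20 (SE 0.26) had an adjusted p of 0.0471, and the call was lost without floor plate replicate 1 (0.0736) or 3 (0.0701) or ventral lateral replicate 1 (0.0783), 2 (0.133) or 3 (0.14), and after quantile normalization (0.0599). Probe set 1421283_at overlapped between the regions, at -0.19, 0.17 and -0.03 in floor plate against 0.03, 0.03 and -0.39 in ventral lateral samples (log2 fold change 0.10, 95% interval -0.26 to 0.45, adjusted p = 0.826).

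These disagreements were tested by fitting each probe set's value minus the mean over all probe sets of its gene on the same array, over the 25762 probe sets of genes with more than 1. By that test 1.59% of probe sets departed from their gene. For Bmp5, 1455851_at departed upward (difference 1.30, SE 0.14, adjusted p = 0.00656) and 1421283_at downward (-1.20, SE 0.09, adjusted p = 0.00155). The mean includes the probe set itself, so departures within a gene offset each other, and these are not separate findings. The files do not say which transcript or part of the gene each probe set reads, so the fold change of Bmp5 depends on the probe set taken.

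Bmp6 is represented by 1 probe set, 1450759_at. Its values were 1.13, 1.20 and 0.85 in floor plate and -0.99, -0.85 and -1.38 in ventral lateral samples. All floor plate samples were high and all ventral lateral samples low, with a gap between the groups wider than the range within either. The log2 fold change was 2.13 (SE 0.16, adjusted p = 0.000501), and it passed in 6 of 6 fits that left out a sample, at 1.98 to 2.24.

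Bmp7, a ligand with broad roles in the developing eye, kidney and skeleton, was higher on all 3 of its probe sets. Probe set 1418910_at gave 1.30, 0.72 and 0.99 in floor plate, against -1.61, -0.72 and -1.84 in ventral lateral samples (log2 fold change 2.39, SE 0.29, adjusted p = 0.00371). On 1432410_a_at the floor plate samples were at 1.49, 0.75 and 0.97 and the ventral lateral samples at -0.75, -0.81 and -1.54 (2.10, SE 0.26, adjusted p = 0.00404). The third, 1435479_at, read 0.39, 0.35 and 0.61 against -0.35, -0.70 and -0.86 (1.09, SE 0.15, adjusted p = 0.00687). None of these probe sets overlapped between the regions, and each passed in 6 of 6 fits that left out a sample. The departure of 1435479_at from the mean of the gene, -0.77 on the log2 scale (SE 0.17), did not pass (adjusted p = 0.0916).

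**Figure D1:**
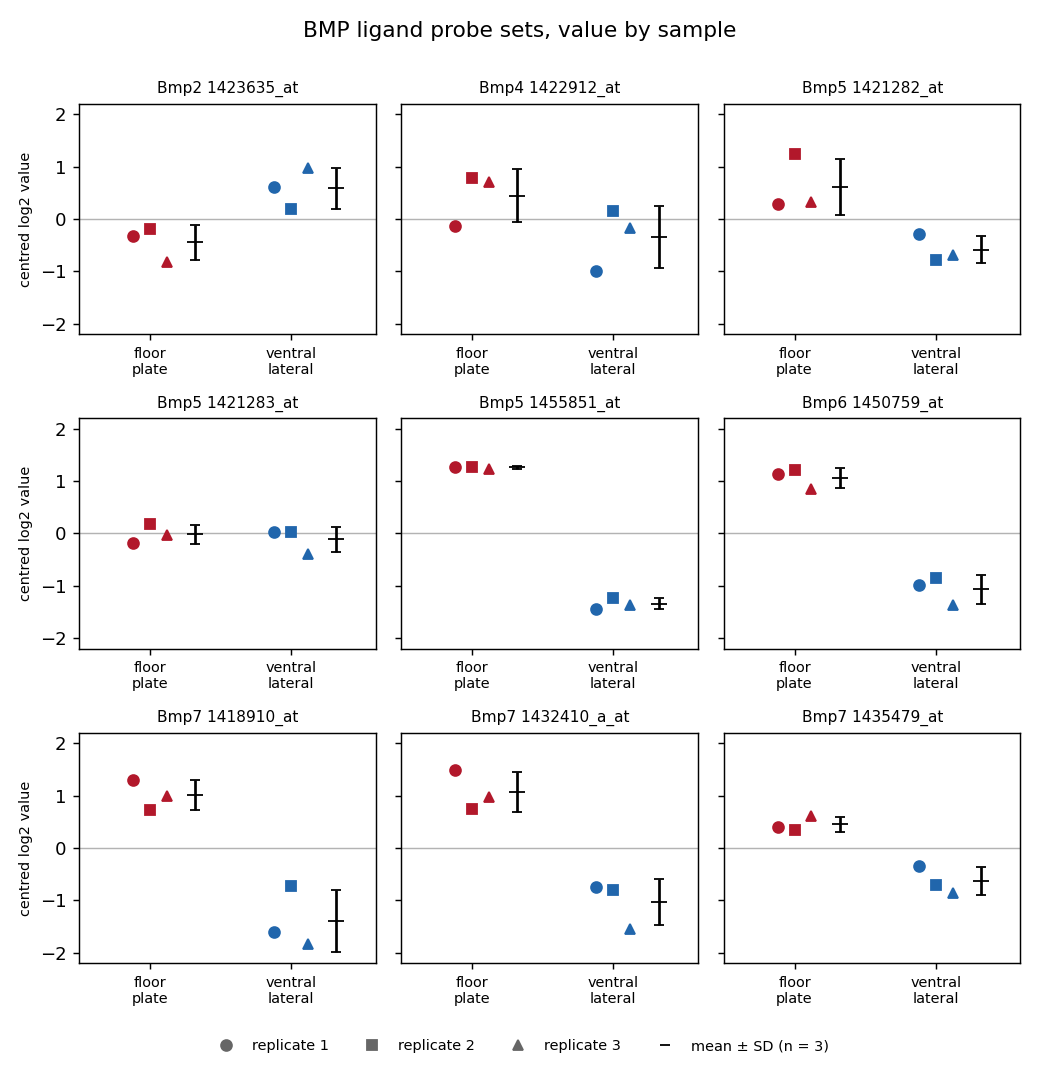
Centred log2 value (vertical axis) of each of the 9 ligand probe sets in the 3 floor plate samples (red, left) and the 3 ventral lateral samples (blue, right), with symbols for replicate numbers and black bars for the mean ± SD (n = 3). Bmp6, Bmp7 and Bmp5 1455851_at separate by about 1.09 to 2.61 on the log2 scale, Bmp2 lies the other way, and Bmp4 and Bmp5 1421283_at overlap.

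Neither ligand of the other subgroup passed the test, and whether they differ from Bmp5, Bmp6 and Bmp7 was not tested. Bmp2, a close relative of Bmp4, read -0.32, -0.19 and -0.83 in floor plate and 0.60, 0.19 and 0.97 in ventral lateral samples on its 1 probe set, 1423635_at. The groups did not overlap and floor plate was lower in every sample, but the log2 fold change of -1.03 (SE 0.23, 95% interval -1.57 to -0.49) missed the threshold by a little (adjusted p = 0.0515). It passed without ventral lateral replicate 2 (-1.23, adjusted p = 0.03), after quantile normalization (0.0481) and when probe sets without a single gene symbol (0.0443) or those ending in _x_at and _s_at (0.0491) were left out, while the adjusted p was 0.0656 to 0.156 in the other 5 fits without a sample. The log2 fold change lay between -1.23 and -0.84 in the fits without a sample.

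Bmp4, known as a dorsalising signal in the neural tube, was not called. Its probe set 1422912_at read -0.15, 0.78 and 0.70 in floor plate and -0.996, 0.15 and -0.17 in ventral lateral samples. Both regions spread widely and they overlapped, since floor plate replicate 1 lay below ventral lateral replicate 2. The log2 fold change was 0.79 (SE 0.34, 95% interval -0.0006 to 1.57, adjusted p = 0.304), so no difference and one of 1.57 both lie within or next to what these arrays allow in this fit. With the replicate number as a block in limma, Bmp4 passed (adjusted p = 0.0171), but whether these numbers pair the samples is not known.

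Of the 17 receptor probe sets, 2 were higher and 0 lower, both of the higher ones belonging to Acvr1, beside the 2.70% and 2.01% of all probe sets given above. The median log2 fold change over the receptor probe sets was 0.11 and their range -0.34 to 0.99, against 1.20 and a range of -1.03 to 2.61 for the ligand probe sets. Floor plate lay above ventral lateral tissue with no overlap for 5 receptor probe sets, 2 of Acvr1, 2 of Bmpr1a and 1 of Bmpr1b, and below it for 0. Over all probe sets 11.5% lay above and 11.0% below in this way. Averaged over the ligand probe sets, the floor plate samples stood at 0.58, 0.70 and 0.54 and the ventral lateral samples at -0.64, -0.53 and -0.81. The same average over the receptor probe sets was 0.03, 0.06 and 0.10 in floor plate and -0.09, -0.12 and -0.04 in ventral lateral samples. Each probe set counts once in these averages, and probe sets of a gene are not independent of each other.

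**Figure D2:**
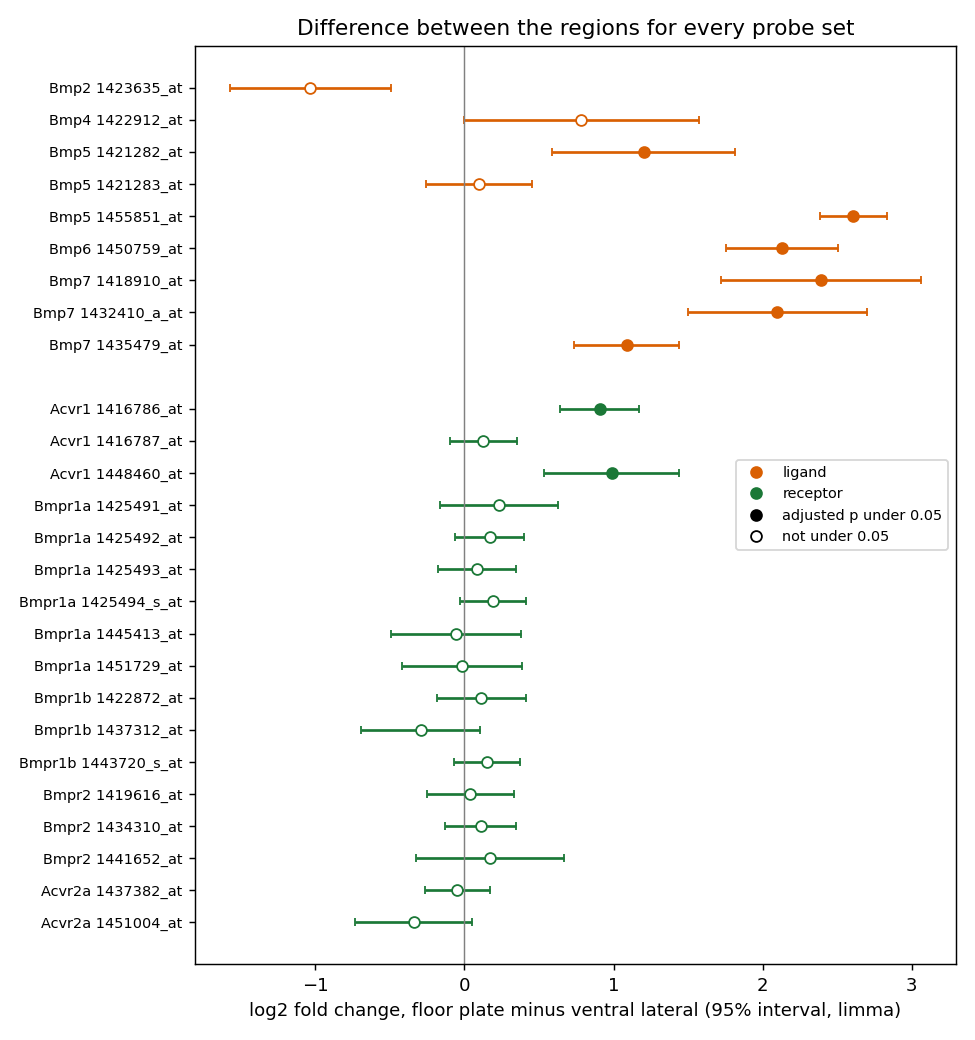
Log2 fold change, floor plate minus ventral lateral (horizontal axis), of all 26 probe sets with 95% intervals from limma, ligands in orange above receptors in green, filled where the adjusted p was under 0.05. The 6 filled ligand points lie between 1.09 and 2.61, the 2 filled receptor points, both Acvr1, at 0.91 and 0.99, and the 14 probe sets of the other receptors between -0.34 and 0.23.

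Acvr1, also called ALK2, a type I receptor, was the receptor gene that rose. On 1416786_at it read 0.43, 0.33 and 0.39 in floor plate, against -0.68, -0.56 and -0.33 in ventral lateral samples. The floor plate samples were nearly equal and all above the ventral lateral ones. The log2 fold change was 0.91 (SE 0.11, adjusted p = 0.0044) and it passed in 6 of 6 fits that left out a sample, at 0.83 to 1.001. The second, 1448460_at, was at 0.26, 0.53 and 0.22 against -0.88, -0.22 and -0.87, with ventral lateral replicate 2 nearest to floor plate. Its log2 fold change of 0.99 (SE 0.19, adjusted p = 0.0304) lost the call without any 1 of the floor plate samples (0.0706 to 0.0918) or without ventral lateral replicate 1 (0.111) or 3 (0.102), and kept it without replicate 2 (1.21, adjusted p = 0.00496). The third probe set, 1416787_at, overlapped between the regions, at 0.19, 0.04 and -0.01 against -0.08, -0.09 and 0.01 (0.13, 95% interval -0.10 to 0.35, adjusted p = 0.603). It departed from the mean of the gene (-0.55, SE 0.09, adjusted p = 0.0364). Averaged over its 3 probe sets, Acvr1 differed by 0.67 on the log2 scale (adjusted p = 0.00438 over all genes).

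Bmpr1a, a type I receptor for Bmp2 and Bmp4, was covered by 6 probe sets and none passed. Their log2 fold changes lay between -0.06 and 0.23, with adjusted p-values of 0.383 to 0.98. The lowest p among them was that of 1425494_s_at, at 0.04, 0.07 and 0.06 in floor plate and -0.14, -0.24 and -0.04 in ventral lateral samples (0.19, 95% interval -0.03 to 0.41). Floor plate was above ventral lateral tissue in all samples there and on 1425492_at (0.17, 95% interval -0.06 to 0.40), while the other 4 overlapped. The widest bounds over the 6 intervals were -0.49 and 0.63.

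Bmpr1b, the type I receptor closest to Bmpr1a, had 3 probe sets that did not point the same way. Probe set 1437312_at gave -0.29 (0.11, -0.35 and -0.12 in floor plate against -0.11, 0.18 and 0.44 in ventral lateral samples, adjusted p = 0.472). The log2 fold changes of 1443720_s_at and 1422872_at were 0.15 and 0.11 (adjusted p of 0.511 and 0.742). The departure of 1437312_at from the mean of the gene did not pass (-0.28, adjusted p = 0.403), so a difference between these probe sets was not shown.

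The type II receptors did not pass either. Bmpr2, a receptor used by BMPs, had log2 fold changes of 0.04, 0.11 and 0.17 on its 3 probe sets (adjusted p of 0.69 to 0.922). The highest of these, 1441652_at, read 0.60, -0.14 and 0.0014 in floor plate and 0.23, -0.0014 and -0.29 in ventral lateral samples, so floor plate replicate 1 stood apart. Acvr2a, a receptor for activins as well as BMPs, was at -0.05 and -0.34. On 1451004_at, the lower of these, floor plate read -0.26, -0.09 and 0.02 and ventral lateral samples 0.59, -0.02 and 0.12 (95% interval -0.73 to 0.05, adjusted p = 0.383), with ventral lateral replicate 1 above all others. Over the 14 probe sets of Bmpr1a, Bmpr1b, Bmpr2 and Acvr2a, no 95% interval reached below -0.73 or above 0.67, so differences larger than these bounds were not found on any of them.

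**Figure D3:**
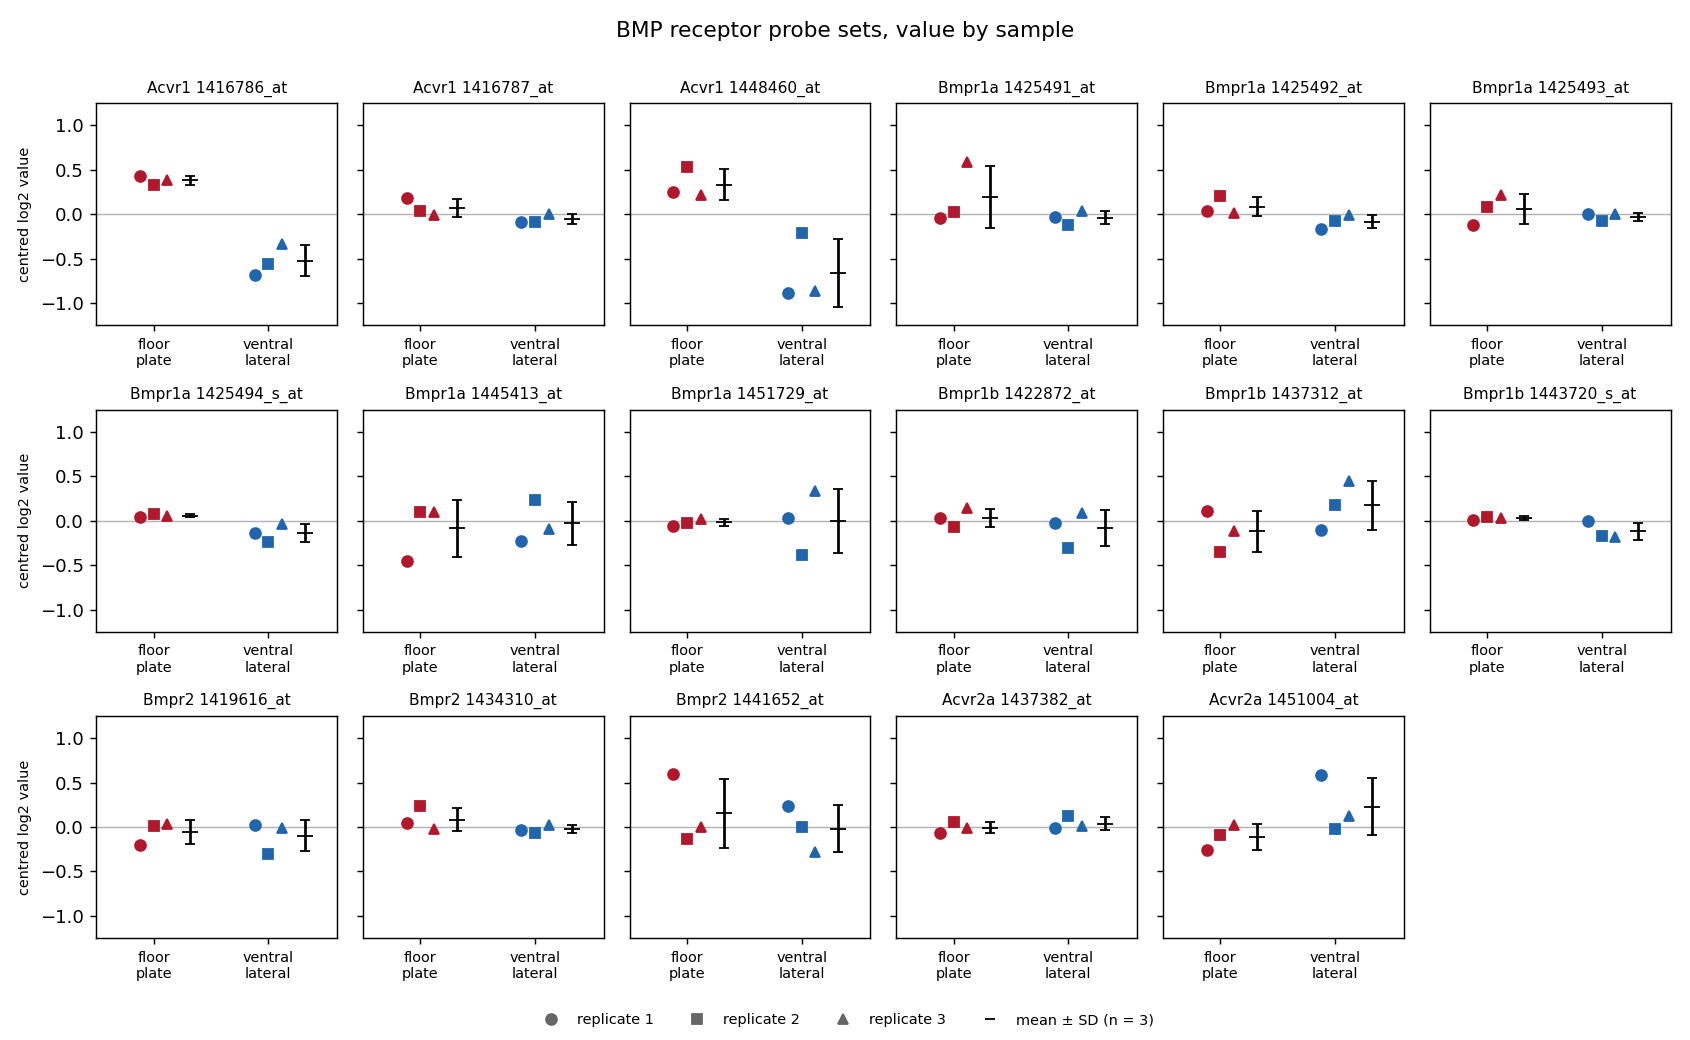
Centred log2 value (vertical axis) of each of the 17 receptor probe sets in the 3 floor plate samples (red, left) and the 3 ventral lateral samples (blue, right), with symbols for replicate numbers and black bars for the mean ± SD (n = 3). The Acvr1 probe sets 1416786_at and 1448460_at separate by 0.91 and 0.99, and the other 15 probe sets have differences of -0.34 to 0.23, with single values from -0.45 to 0.60.

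Called per gene, where 1 passing probe set was enough, 4 of the 10 members were higher (Bmp5, Bmp6, Bmp7 and Acvr1) and 0 lower. Over all 18193 genes named singly, 4.58% were higher and 3.24% lower by that rule, and 0.00550% (1 gene) had probe sets passing in both directions. The rule favours genes with many probe sets, and the shares over all genes were not matched for their number. Bmp5, Bmp7 and Acvr1 had 3 each and Bmp6 had 1, while Bmpr1a with 6 was not called. When the probe sets of each gene were averaged, Bmp7 was at 1.86 (adjusted p = 0.000996) and Bmp5 at 1.30 (adjusted p = 0.00103), and Bmp2 passed as lower (-1.03, adjusted p = 0.0314). The same 4 genes were higher in every fit that left out 1 sample.

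The remaining genes of the pathway were read from 8 lists, covering 76 measured genes, of which 12 were higher and 3 lower. These lists too were chosen with earlier results of these data known. No gene was called in limma among 10 other BMP and GDF ligands, 6 activin and Nodal ligands, 7 other receptors of the superfamily, 7 co-receptors and 10 Smads and their regulators. Among these 40 genes 9 had at least 1 probe set with an unadjusted p under 0.05, where 7428 of the 45037 probe sets on the array had such a p. The first is a count of genes, where any 1 probe set was enough, so it is not directly comparable with the share of probe sets. The log2 fold changes over the 100 probe sets of these 40 genes lay between -0.38 and 0.57. Bmp8a (0.07, adjusted p = 0.869) and Bmp8b (0.35, adjusted p = 0.115 on its probe set with the lowest p), of the subgroup of Bmp5, were among the ligands that did not pass. The 7 other receptors, among them the activin and TGF-beta type I receptors, did not pass. Not passing was the common outcome, since 4.58% of all singly named genes were higher and 3.24% lower.

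Of 7 genes for proteases that mature or free the ligands 4 were higher, and the other 3, Pcsk7 (-0.05), Tll1 (0.04) and Tll2 (-0.29), did not pass. Over all singly named genes 4.58% were higher and 3.24% lower. The proprotein convertases Pcsk5, which rose on 2 of 5 probe sets with log2 fold changes of up to 1.26 but read -0.36 on another that did not pass, and Pcsk6 (0.76, adjusted p = 0.0495) cut precursors of this superfamily into mature ligands. Furin (0.51, adjusted p = 0.0201), which does the same, and Bmp1 (0.58, adjusted p = 0.0216), which despite its name is a protease that cleaves the BMP antagonist chordin, were the other members, named after their values were seen. Bmp1 passed on 1 of its 3 probe sets, and the lowest of the 3 read 0.11. Among 18 extracellular antagonists and modulators 10 had at least 1 probe set with an unadjusted p under 0.05 (limma). After adjustment 2 were higher and 1 lower. The higher ones were Nbl1, which binds BMPs (0.97, adjusted p = 0.018), and Fstl1 (0.83 and 0.78 on its probe sets, both passing), a follistatin-like protein. Fst itself, which binds activins and some BMPs, was lower on both of its probe sets, at -1.09 (adjusted p = 0.00642) and -0.81.

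Target and feedback genes went both ways, 6 of 11 higher and 2 lower, beside 4.58% and 3.24% of all singly named genes. Of these 11 genes 10 had at least 1 probe set with an unadjusted p under 0.05 (limma). The homeobox genes Msx1 and Msx2, known targets of BMP signals, were highest, at 3.53 and 2.43 on 1 of the 2 probe sets of each (0.44 and 0.61 on the others, neither passing). Id2 (-1.36, adjusted p = 0.0103) and Id1 (-0.82, adjusted p = 0.00619), classic BMP target genes encoding inhibitors of basic helix-loop-helix factors, were lower. Id2 passed on 2 of its 3 probe sets, and its log2 fold changes lay between -1.36 and -0.58. Id3 of the same family, named after its value was seen, was higher (0.70, adjusted p = 0.0157), and Id4 did not pass (0.40 on the probe set with its lowest p, adjusted p = 0.146). Targets on this list thus moved in opposite directions, and none of these RNA values is a measure of signalling.

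**Figure D4:**
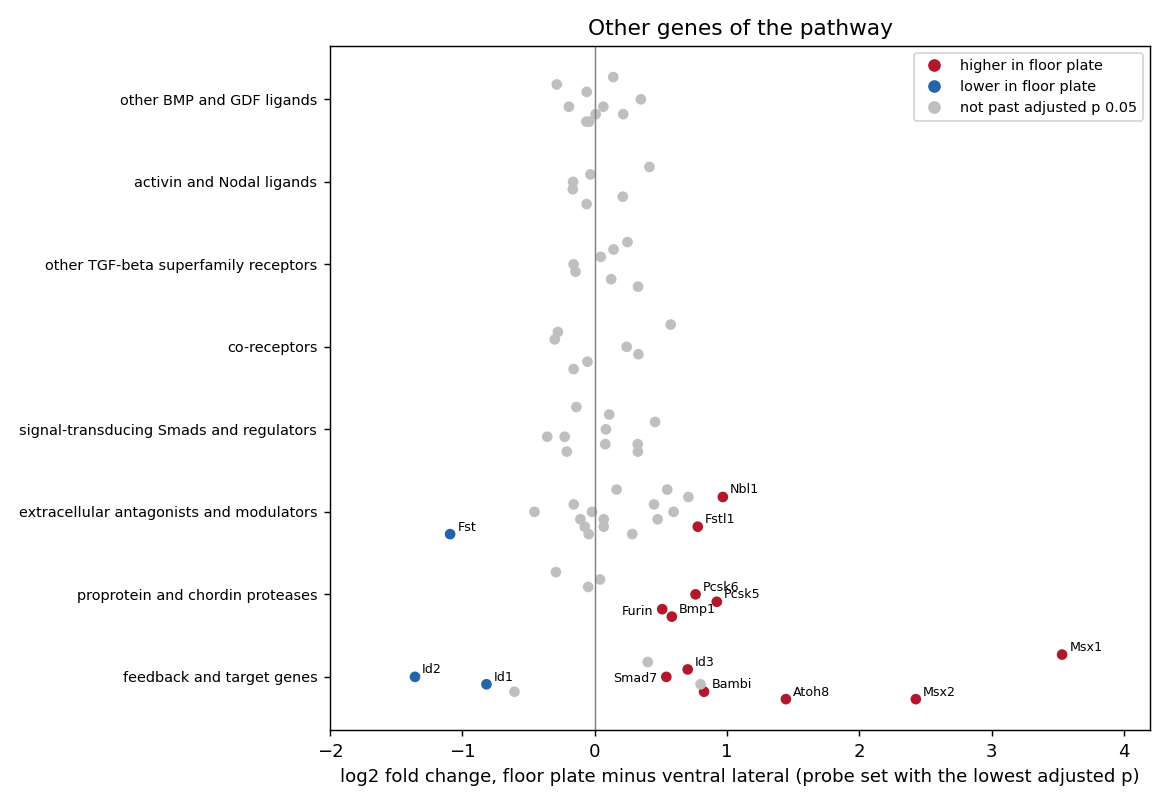
Log2 fold change, floor plate minus ventral lateral (horizontal axis), of 76 other pathway genes in 8 lists (rows), each on its probe set with the lowest adjusted p, red where higher, blue where lower and grey where not past the threshold. The 12 red points lie among proteases, antagonists and targets, and no gene of the 5 upper lists is coloured, the heights within a row only spreading the points.

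Markers of other cell types were read beside these results. Of 10 mesenchyme markers 1 was higher, Twist1 (2.11, adjusted p = 0.00724), a gene singled out after its value was known, and the mean over their 23 probe sets ranged from -0.31 to 0.32 in floor plate and from -0.36 to 0.25 in ventral lateral samples. Of the 6 measured dorsal midbrain and roof plate markers 4 were lower in floor plate and 0 higher, with means of -0.83 to -0.67 in floor plate against 0.69 to 0.78. The lower ones were Pax3, Pax7, Zic1 and Mab21l1. Wnt3a (-0.05, adjusted p = 0.921) and Olig3 (-0.46, adjusted p = 0.397) did not pass in limma. No marker of blood (5 genes), macrophages (5) or surface ectoderm (6) was called in limma, with 0, 1 and 2 of them having an unadjusted p under 0.05, and 1 of 6 endothelial markers was lower. Of the 6 newborn neuron markers 1 was lower, Stmn2 (-0.66, adjusted p = 0.0493), and 5 had an unadjusted p under 0.05. On the array 7428 of the 45037 probe sets had an unadjusted p under 0.05. The marker counts are of genes, where any 1 probe set was enough, so they are not directly comparable with that share. Over all singly named genes 4.58% were higher and 3.24% lower after adjustment. The median log2 fold change over the 14 probe sets of the newborn neuron markers was -0.43. Their mean ranged from -0.34 to -0.00019 in floor plate, against -0.06 to 0.38 in the lateral tissue. Of the 6 neural progenitor markers 1 was lower, Sox1, on 1 of its 2 probe sets (-2.83, adjusted p = 0.0104). Its other probe set read -0.29 and did not pass. The median log2 fold change over the 12 probe sets of these 6 markers was 0.02. Their mean ranged from -0.21 to -0.12 in floor plate, against 0.07 to 0.09 in the lateral tissue. That mean includes the Sox1 probe set at -2.83. On their probe sets with the lowest p, Sox2 (0.30), Nes (0.12) and Vim (0.11) were positive. Fabp7 (-0.22) and Hes5 (-0.23) were negative, and none of these other markers passed. Stmn2 and Sox1 were singled out after their values were seen. The 1 measured notochord marker, Col2a1, did not pass (0.40, adjusted p = 0.372). The part of any of these cells in the differences of the ligands was not tested.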

How the data were processed

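Total RNA of 3 floor plate and 3 ventral lateral pools (5 ng each) was amplified with the NuGEN Ovation V2 system, biotin-labelled and hybridised to Affymetrix arrays, per the labels' protocols. The authors deposited a table of values made with RMA, per the submitters' processing notes. The version, log base, centring and direction are not given in the sources used here. Log2 was assumed for these deposited values, and 100% of probe sets had a median within 1e-05 of 0. Annotation of the platform named 34945 probe sets with 1 symbol, 932 with several and 9160 with none; 64 control probe sets were left out.

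All 45037 other probe sets were fitted one by one with lmFit and eBayes of limma 3.58.1 (R 4.3.3), floor plate minus ventral lateral, without a filter, since centred values hold no level. P-values were adjusted by Benjamini-Hochberg over all of them, with a threshold of 0.05. Named were all probe sets of the members, fixed tissue markers and, per pathway list, up to 2 genes in each direction with the largest change; exceptions are given as such. The members and lists were chosen with earlier results of these data known. Simulated data of 45037 probe sets held 200 changed ones, with independent normal noise. There the fit recovered 8%, 60%, 90% and 98% of changes of 0.5, 1, 2 and 3 (log2) and called 5 unchanged probe sets. These rates need not be those of the main fit, which called 2121 probe sets. Python 3.11.15, pandas 2.3.3 and matplotlib 3.10.9 were used for summaries and plots.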

Additional observations from a re-analysis of the deposited data

How the results depend on the processing

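The 4 genes called higher (Bmp5, Bmp6, Bmp7 and Acvr1) each had a probe set that passed in 6 of 6 fits without a sample (Bmp5 1455851_at, that of Bmp6, all 3 of Bmp7 and Acvr1 1416786_at); ligand probe sets called higher numbered 5 to 6 in these fits and receptor probe sets 1 to 2. Receptor probe sets called higher were also 1 at a threshold of 0.01. Bmp2 made the count of lower ligand probe sets and of lower member genes 1 instead of 0 after quantile normalization, with only probe sets of 1 symbol, without _x_at and _s_at probe sets and at a threshold of 0.10, and the count of lower genes 1 with the probe set of the largest variance or the mean per gene; without a sample both ranged from 0 to 1 (1 without ventral lateral replicate 2). Of 362 comparisons of single probe sets with an alternative, 342 kept their side of the threshold, 14 lost a call (Bmp5 1421282_at and Acvr1 1448460_at) and 6 gained one (Bmp2 and Bmp4). Across the array, 753 to 991 probe sets were higher and 510 to 743 lower without a sample, fewer arrays being fitted (753 and 510 on omitting floor plate replicate 1, 800 and 562 on omitting replicate 1 of ventral lateral tissue, 781 and 594 on omitting its replicate 3, and 537 lower on omitting floor plate replicate 3); 1419 were lower at 0.10, and 584 higher and 373 lower at 0.01. Departures of a probe set from its gene numbered 169 to 276 without a sample instead of 409 (194, 252 and 191 on omitting replicates 1, 2 and 3 of floor plate, 169 and 184 on omitting replicates 1 and 3 of the lateral tissue), and 2 to 5 instead of 3 among the members (5 without ventral lateral replicate 2). With the replicate number as a block, 235 departures, 1062 higher and 842 lower probe sets were called, 6 ligand and 2 receptor probe sets were again higher, Bmp4 passed (log2 fold change 0.79, adjusted p = 0.0171) and Bmp5 1421282_at did not (0.077). Deviations of same-numbered samples correlated at 0.0096, 0.125 and 0.114, and those of different-numbered samples at -0.149 to 0.027. These values do not settle whether the numbers pair the samples, and the labels state no pairing. The main fit therefore used none. No limit from signal over background can be given for centred values.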

Other observations

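A probe set annotated to both Orc4 and Acvr2a, 1457451_at, was left out of the members because it names 2 genes. It read 0.06, -0.06 and -0.28 in floor plate and 0.06, 0.26 and -0.06 in ventral lateral samples, a difference of -0.18 on the log2 scale (SE 0.13, adjusted p = 0.568). The groups overlapped as they did on the 2 probe sets of Acvr2a alone.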
